A study of Rattus norvegicus with 6 samples.

Results

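Among the transcripts that StringTie assembled from the lung RNA of control and bleomycin-treated rats, 1652 carried the class code o and were longer than 200 bases, out of 70376 transcripts in the table and 41501 that were assembled without an Ensembl identifier. Class code o marks an assembled transcript whose exons overlap an exon of an annotated transcript on the same strand without sharing any of its introns. The 1652 members lay in 1139 loci, a locus being all transcripts that share an assembly gene identifier. The rule used the identifier, the class code and the length, and no expression value. Of the members, 169 in 23 loci were set apart because the summed FPKM (fragments counted per length of transcript and per depth of library) of their locus, averaged over all 6 libraries, was at least 1000. The other 1483 members lay in 1116 loci. The level that set the first group apart is not a result, and the comparison between rats did not use it.

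Control rats were Sprague–Dawley rats given saline, and model rats received a single intratracheal dose of bleomycin at 7 mg/kg, which induces pulmonary fibrosis (PF). All rats were 7 weeks old at the start, and whole lung tissue was taken on day 28 from both groups. One library per rat was made from total RNA depleted of rRNA (3 control and 3 model libraries) and sequenced as paired reads of 150 bases. Whole lung holds many cell types, and in such bulk RNA a lower number of cells and less RNA per cell cannot be told apart.

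U1 and U2 are small nuclear RNAs of the spliceosome, the machine that removes introns. The 7SL RNA is the scaffold of the signal recognition particle, and 5.8S is a small ribosomal RNA cut from the same precursor as the large ribosomal RNAs. All are short, very abundant and encoded by several near-identical genes and many pseudogenes, so that reads cannot always be assigned to a single copy. A microRNA (miRNA), in contrast, is cut from a longer primary transcript, and a member that spans an miRNA hairpin can be part of such a primary transcript.

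The names of 9 miRNA genes were carried by 27 members. The primary transcripts of miR-143 and miR-145 are best known from smooth muscle, and the let-7 and miR-30 families are abundant in differentiated epithelium. The mature miRNAs of the hairpins that lie within the spans of these members are shown because they tell which seed families the primary transcripts could give rise to. They were taken from RefSeq (GRCr8), with the seed, bases 2 to 8, in capitals. rno-miR-30b-5p and rno-miR-99a-5p also belong to these hairpins and are named only.
rno-miR-143-3p: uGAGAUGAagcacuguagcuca
rno-miR-145-5p: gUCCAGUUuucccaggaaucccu
rno-miR-22-3p: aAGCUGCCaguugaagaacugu
rno-miR-222-3p: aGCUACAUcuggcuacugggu
rno-miR-30a-5p: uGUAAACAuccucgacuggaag
rno-miR-30c-5p: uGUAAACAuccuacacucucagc
rno-miR-322-5p: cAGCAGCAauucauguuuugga
rno-miR-6326: cUGGUCUGuaaagggacacagca
rno-let-7b-5p: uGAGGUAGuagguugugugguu
rno-let-7c-5p: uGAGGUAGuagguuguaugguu
let-7b and let-7c share the seed GAGGUAG, and miR-30a and miR-30c share the seed GUAAACA. The remaining seeds each occurred once among the sequences shown. The values reported for these loci are FPKM of the long assembled transcript and not levels of the mature miRNA.

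The coverage and FPKM of the table correspond to 6.39 to 7.33 gigabases of aligned sequence per library. The members held between 6.69 and 13.996% of the summed FPKM of a library, and the 46 loci of very high FPKM in the table (23 of them with a member) held between 55.8 and 62.9%. The tissue label was checked with marker genes. All 7 markers of alveolar type 2 cells were found, with a summed FPKM of 3092 to 4411 in control and 3832 to 4797 in model libraries. All 4 markers of alveolar type 1 cells and all 4 of club cells were also above a mean FPKM of 1. Markers were missing for endothelium (3 of 4 found), leukocytes (3 of 5) and red blood cells (3 of 4). All 3 mesothelium markers were found, and 2 of them reached this level. Cardiac muscle markers summed to between 0.233 and 0.686 in control and between 0.582 and 8.58 in model libraries, with no marker of the 4 at a mean FPKM of 1. Red blood cell markers summed to 1565 to 2245 in control and 1446 to 2596 in model libraries. The part of these markers in the results was not tested.

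Most members joined few exons over a long stretch of the genome. The median member had 2 exons, was 2434 bases long after splicing and covered 36706 bases of the genome. Exactly 2 exons were found in 1135 of the 1652 members (68.7%), against 6.20% of the 16851 assembled isoforms of class j, which share at least 1 splice junction with an annotated transcript, and 69.9% of the 994 of class x, which overlap an annotated exon on the opposite strand. The 2-exon form was thus not particular to the members. The spliced sequence made up 9.57% of the genomic span in the median member. The widest span, 709660 bases, belonged to MSTRG.7250.1 and MSTRG.7250.2, which join 4 exons into 356 bases. The highest number of exons was 35 in MSTRG.10230.1, and the greatest length was 57521 bases in MSTRG.37745.17, whose gene name is that of the receptor phosphatase gene Ptprm.

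The span of 1157 members overlapped a single annotated gene of the table on the same strand, that of 404 overlapped 2 or more, and that of 91 overlapped none. In loci of very high FPKM, the span of 67.5% of the members overlapped 2 or more annotated genes, against 19.6% in the other loci. Of the 169 members behind the first share, 53 and 34 belong to an overlapping pair of loci on chromosome 14. One end of the transcript coincided, within 5 bases, with an end of an annotated transcript in 273 members (16.5%). Members were found on 22 chromosomes, and the locus with the most members held 53.

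The FPKM of members in loci of very high FPKM were unevenly spread over the libraries. The median member of the other loci had a mean FPKM of 1.85 and about 206 reads per library, as estimated from coverage. Of these 1483 members, 353 had a mean FPKM below 1, 1084 lay between 1 and 10 and 46 at 10 or more. The median member in loci of very high FPKM had a mean FPKM of 71.6 and about 4513 reads, a level that the limit on the locus selects. In 65 of the 169 members (38.5%), at least 90% of the FPKM over the 6 libraries came from 1 library, against 96 of 1483 (6.47%) in the other loci and 40 of the 161 other transcripts (24.8%) of loci of very high FPKM. The median share of the highest library was 70.4%, 25.2% and 43.9%, respectively. The limit on the mean can itself be passed through few libraries, and 2 of the 23 loci, with 3 members, had at least 90% of their total in 1 or 2 libraries. The median coefficient of variation among the 3 control rats was 129% for members in loci of very high FPKM and 30.5% for the others.

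**Figure D1:**
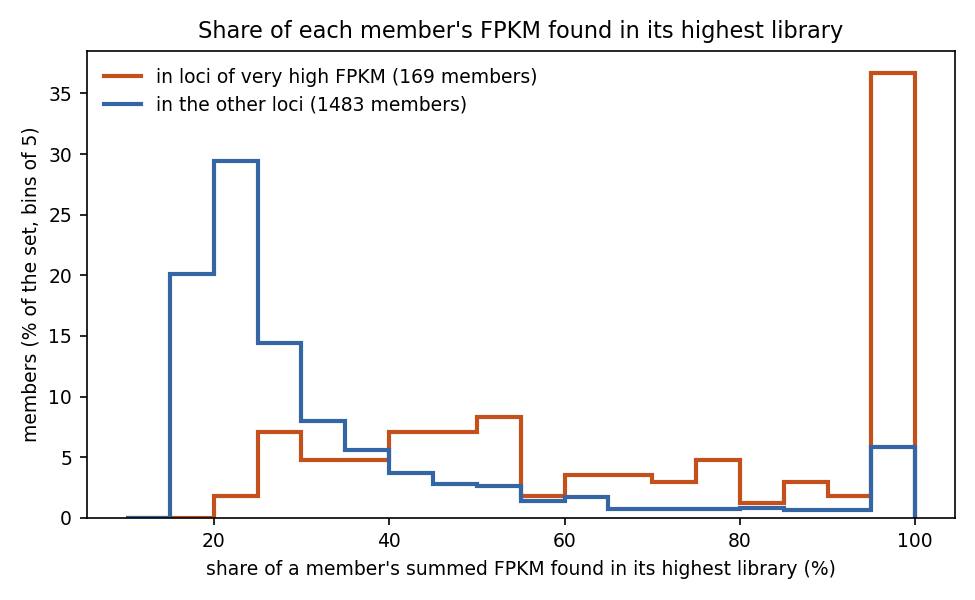
Share of each member's FPKM that falls in its highest library (x axis, percent) against the percentage of members in bins of 5 (y axis), for the 169 members in loci of very high FPKM and the 1483 others. The first set peaks in the last bin, near 100%, and the second near the even share, with medians of 70.4% and 25.2%.

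A level of 1000 FPKM or more was reached in at least 1 library by 34 members. Of the 34, 22 were listed at 0 in at least 1 other library. The library that held at least 90% of a member's FPKM was not always the same rat. It was Control 1 for 28 members, Control 2 for 19, Control 3 for 21, Model 1 for 22, Model 2 for 35 and Model 3 for 36. All 6 libraries thus contributed such members.

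The concentration of a member's FPKM in a single library was clearest in the copies of U2. The 5 loci with an annotated U2 gene or lying opposite one held 15 members, and each of the 15 had at least 90% of its FPKM in a single library. The members had a median length of 231 bases, and 14 of the 15 had 2 exons. In 11, one end was that of the annotated U2 row, and the spliced transcript was between 10 and 77 bases longer than that row (median 35). Summed over the 15, the FPKM were 13.7, 12901 and 45742 in the control rats and 10420, 39525 and 19081 in the model rats. The groups overlapped, and the spread within each exceeded the difference between them. The members held 0.0184% of the summed FPKM of their loci in Control 1 and 50.1% in Model 2.

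MSTRG.6622.3, at chr10:89540070-89562225 on the plus strand with the gene name of the DNA repair gene Rdm1, was the member with the highest mean FPKM. It was listed at 0 in the 3 control rats and in Model 1, and its FPKM was 22349 in Model 2 and 204 in Model 3. Its right end lay inside an annotated U2 gene of the opposite strand, which belongs to the locus MSTRG.6619. The total of MSTRG.6619 was 32988, 21476 and 26957 FPKM in the control rats and 18700, 1230 and 12066 in the model rats. The low value was thus in Model 2, the rat in which the member of the plus strand was high. Across libraries the highest total of MSTRG.6619 was 26.8-fold the lowest, and with MSTRG.6622 added, 2.69-fold, from 12272 to 32991 FPKM.

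Within MSTRG.6619, the annotated U2 transcript and the 7 members held shares of the total that differed from rat to rat. The annotated transcript had 32988, 21476 and 10986 FPKM in the control rats and 8281, 449 and 5110 in the model rats. The members summed to 0.336, 0 and 15971 in the control rats and 10420, 781 and 6956 in the model rats. In Model 2 both were low. In the 4 rats with member sums above 1 FPKM, a different member was highest in each. It was MSTRG.6619.2 with 15971 FPKM in Control 3, MSTRG.6619.3 with 10419.5 in Model 1, MSTRG.6619.7 with 522 in Model 2 and MSTRG.6619.6 with 5411 in Model 3. None of these 4 exceeded 1 FPKM in any other library. All 4 end within 5 bases of the right end of the U2 gene and start at different places to its left.

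Another pair of opposite loci with U2 lay on chromosome 3. MSTRG.22484.1 (chr3:8931887-8965001, plus strand, gene name Miga2) had an FPKM of 21775 in Control 3 and at most 13.01 in any other library. MSTRG.22484.2 (gene name Dolpp1, an enzyme of dolichol recycling) had 11917 in Model 3 and at most 0.263 elsewhere. On the minus strand, MSTRG.22485.1 and MSTRG.22485.2 had 7599.6 and 8795 FPKM in Model 2, MSTRG.22485.3 had 7995 in Control 3 and MSTRG.22485.4, with the gene name of the carnitine acetyltransferase gene Crat, had 7359.9 in Control 2. The total of MSTRG.22485 alone varied 5.20-fold across libraries, and that of both loci 2.25-fold, from 21047 to 47434 FPKM. The remaining U2 locus, MSTRG.25916, held 1 member, at 5540.4 FPKM in Control 2 and listed at 0 in the other 5 libraries.

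**Figure D2:**
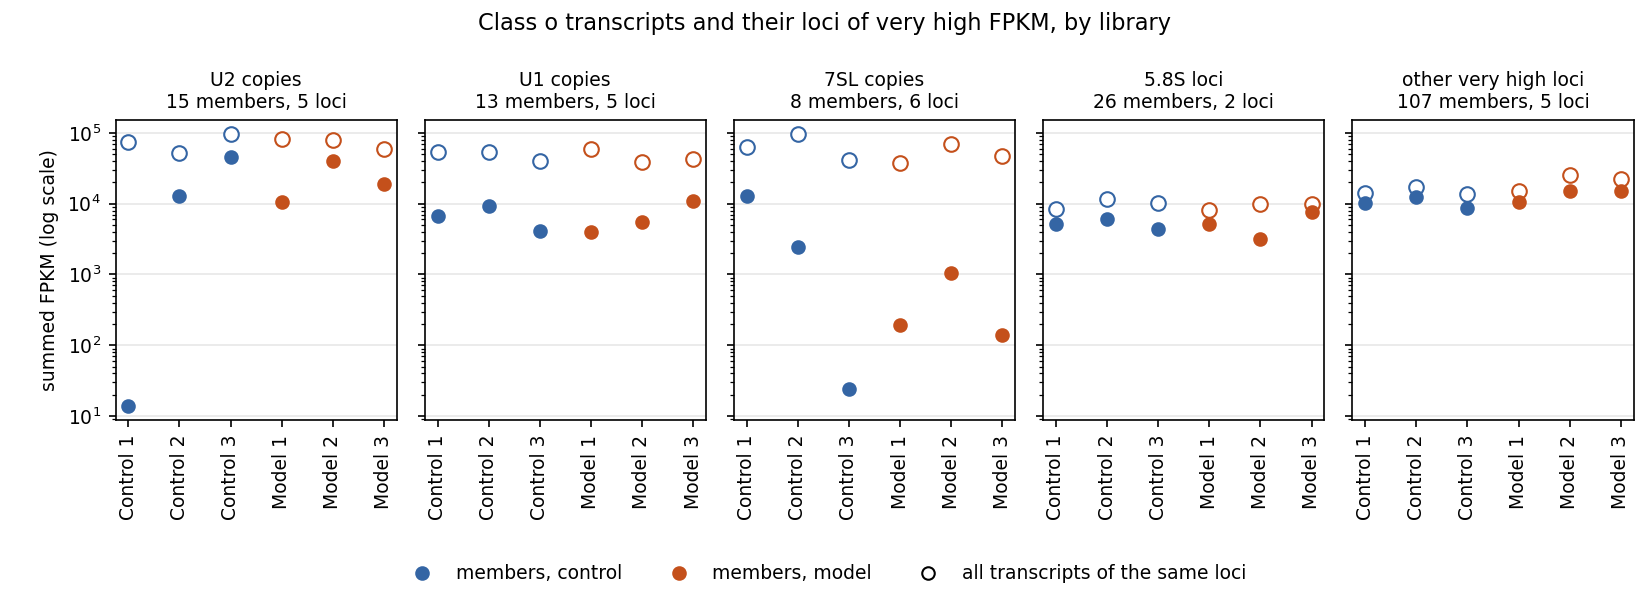
Summed FPKM (y axis, log scale) in each library (x axis) for 5 kinds of loci of very high FPKM. Filled points are the members and open points all transcripts of the same loci. The U2 loci totalled 52098 to 97596 FPKM while their members ranged from 13.7 to 45742, and members of 7SL loci ranged from 24.0 to 12701. The 7SL loci include MSTRG.30813, which holds no annotated 7SL transcript.

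The U1 loci held 13 members in 5 loci, 7 of them with at least 90% of their FPKM in 1 library. Their sum was 6634, 9255 and 4128 FPKM in the control rats and 3962, 5531 and 11055 in the model rats, and the groups overlapped. The member MSTRG.30671.1, named after U1, was present in all libraries, with 341, 281 and 975 FPKM in control and 892, 623 and 1702 in model rats, and these also overlapped. MSTRG.30666.2 had 3000.3 FPKM in Control 1, 93.6 in Control 3, 2176 in Model 1 and 1597 in Model 3, and was listed at 0 in the other two rats. Loci counted as 7SL held 8 members, of which 6 had at least 90% of their FPKM in 1 library. Of these, MSTRG.9007.1 with 5289 FPKM, MSTRG.34885.1 with 3868 and MSTRG.30813.1 with 3490.2 had their level in Control 1. Summed over the 8, Control 1 had 12701 and Control 2 had 2420.0, against 24.0 in Control 3 and 191, 1049.8 and 138 in the model rats. The loci as a whole totalled 38131 to 95394. Both the sums and the totals include MSTRG.30813, which was counted with 7SL although it holds no annotated 7SL transcript. Its annotated gene is Klhdc2, and its member bears the name Klhdc1.

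The ribosomal and clone-named loci differed from the former in structure. The 2 loci named after 5.8S held 26 members of a median length of 2519 bases, 10 of them with FPKM above 0 in all 6 libraries. Their sum was 5149, 6019 and 4449.9 in control and 5179, 3207 and 7611 in model rats, and the groups overlapped. The annotated 5.8S transcript of MSTRG.201, 153 bases long, had at most 0.0213 FPKM in any library. The other 5 loci held 107 members, 53 and 34 of them in MSTRG.11559 and MSTRG.11560, 2 overlapping loci of opposite strands on chromosome 14. Summed over the 107, the FPKM were 10317, 12628 and 8785 in control and 10547 and 14919 in Model 1 and Model 2 and 15069 in Model 3. The annotated transcripts of MSTRG.11559, MSTRG.11560 and MSTRG.3580 carry clone-based names without a stated function, that of MSTRG.199 carries the Rfam name RF01518, and MSTRG.30246 holds no annotated transcript.

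Control and model rats were then compared with limma on log2(FPKM + 1) over all transcripts present, that is with an FPKM over 0, in 3 or more libraries. Differences are model minus control on this scale. Each SE is the moderated one of limma. It is drawn towards that of transcripts or loci of similar level and does not measure the spread of the rats alone. A member was called when its p, before adjustment, was 0.05 or lower and the group means differed by a log2 ratio of 1 or more. Of 64867 transcripts tested, 2.98% were called. Of the members, 1487 were tested and 165 were not, and 53 of the tested members (3.56%) were called. Of the 53, 21 were higher and 32 lower in model rats, where 1.22% and 1.76% of all transcripts were. In 170 tested members (11.4%) the groups did not overlap, against 10.4% of all transcripts tested. Of these, 64 were higher and 106 lower in model rats (4.12% and 6.29% of all transcripts). By the unadjusted p alone, 79 members (5.31%) and 4.53% of all transcripts passed. The median difference of the members was -0.03, and that of all transcripts tested was -0.02. The share of members called was thus near the background of the table. When FPKM were rescaled to TPM, 27 members were called higher and 29 lower. Rescaled to the sum outside loci of very high FPKM, 20 were called higher and 32 lower.

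In the other loci, 37 of 1383 tested members were called (2.68%), 13 higher and 24 lower in model rats. In loci of very high FPKM, 16 of 104 tested members were called (15.4%), 8 in each direction, and 65 were not tested. Of the 16 calls, 6 were among 37 tested members of MSTRG.11559 and 2 among 22 of MSTRG.11560, the overlapping pair on chromosome 14. Of the 23 loci of very high FPKM with a member, 0 had a total that was called, where 2.22% of all loci tested were. With so few loci, this count cannot be told from that background. Among the 127 tested transcripts of such loci that are not members, 7 were called (5.51%), and among the 72 that are annotated, 1 was. Whether these shares differ was not tested. The differences were wider in loci of very high FPKM, with an interquartile range of -1.05 to 1.82, than in the other loci, with -0.20 to 0.14. After Benjamini-Hochberg adjustment of the limma p over all transcripts, 2 members had an adjusted p below 0.05, as did 0.0277% of the transcripts tested.

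**Figure D3:**
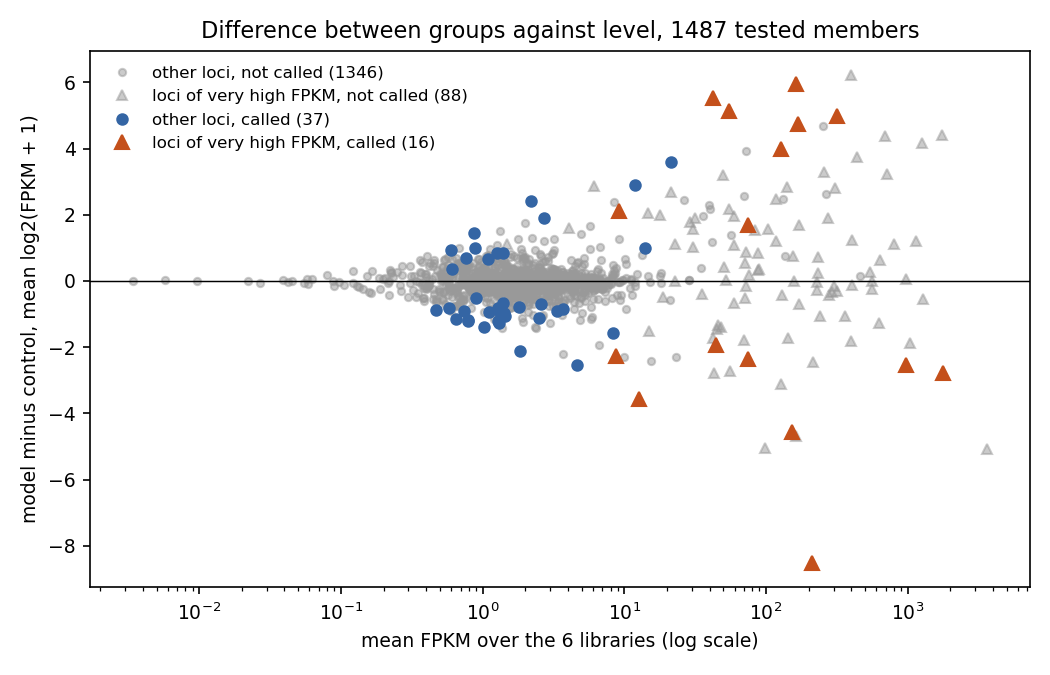
Difference between model and control rats (y axis, log2(FPKM + 1)) against mean FPKM (x axis, log scale) for the 1487 tested members. Triangles are members in loci of very high FPKM and circles the others, with the 16 and 37 called members in colour. Differences widen with level, and called members lie on both sides of 0.

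The sums over the members of each set overlapped between the groups in FPKM. Members in loci of very high FPKM summed to 34815, 43223 and 63129 in control rats (mean 47056 ± 14541 SD, n = 3) and to 30298, 64232 and 52954 in model rats (mean 49162 ± 17282 SD, n = 3). An exact permutation test, two-sided, gave p = 0.9. The other members summed to 3912, 5323 and 4550 in control and 5478, 9888 and 4582 in model rats, and the exact permutation test gave p = 0.2, where 0.1 is the smallest p that 3 rats against 3 allow. Rescaled to TPM, which divides by the total of each library, the other members summed to 7032, 8907 and 8771 in control and 10245, 18671 and 8981 in model rats, so that the groups no longer overlapped and p was 0.1 in the exact permutation test. Rescaled instead to the sum outside loci of very high FPKM, they gave an exact permutation p of 0.4, so the 2 scalings differed. The log2 ratio of the group means in FPKM was 0.53, and 0.13 without Model 2. Model 2 stood out, and 1831 FPKM of its sum came from MSTRG.30670.1, named after U1, which was listed at 0 in 4 of the other libraries and at 0.143 in Model 3. The 1433 members of loci with a mean total below 100 summed to 3430.5, 3333 and 3595 in control and 3604, 3525 and 3456 in model rats (exact permutation p = 0.4). The groups overlapped here too.

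Totals per locus were compared in the same way. Of 40805 loci tested, 2.22% were called, and of 1125 tested loci with a member, 13 were. At an unadjusted p under 0.05 there were 59 loci with a member (5.24%), against 4.91% of all loci. No locus with a member reached a Benjamini-Hochberg adjusted p below 0.05 in limma, where 0.0098% of all loci did. For the members with the smallest p, the total of the locus is given beside the member, which is part of it.

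The 2 members that passed the adjusted threshold were present in one group and listed at 0 in the other. MSTRG.199.2, 4 exons at chr1:11838013-11909871, had 747, 319 and 207 FPKM in the control rats and was listed at 0 in the 3 model rats. All control values were thus above the model values, and the difference was -8.52 (SE 0.46, limma adjusted p = 0.0194). Its locus, which holds 12 members, did not follow. The total was 3517, 3620.3 and 3777 FPKM in control and 4709, 6975 and 6592 in model rats, higher in each model rat. With the moderated SE, the total did not pass (difference 0.72, SE 0.84, limma adjusted p = 0.941). MSTRG.36815.1, 2 exons at chr9:46650445-46728309, carries the name of Map4k4, a kinase upstream of JNK signalling. It was listed at 0 in the 3 control rats and had 5.12, 4.26 and 3.77 FPKM in the model rats. The difference was 2.42 (SE 0.16, limma adjusted p = 0.0359). The total of the Map4k4 locus was 39.9, 43.8 and 32.1 in control and 39.1, 37.0 and 41.5 in model rats, so that the groups overlapped. Both members could only be tested because of the group in which they were present, and 9 of the 1487 tested members had a group listed at 0. With any single library left out, neither passed: the limma adjusted p of MSTRG.199.2 was 0.0920, 0.160 and 0.161 without Model 1, Model 2 and Model 3, that of MSTRG.36815.1 was 0.0944, 0.121 and 0.117 without Control 1, Control 2 and Control 3, and leaving out a library in which the member was present left it untested.

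The further members with the smallest p in each direction did not pass the adjusted threshold and are described by their values. In loci of very high FPKM, the 5 members of smallest p among those higher in model rats came from the chromosome 14 pair. MSTRG.11560.10, 3 exons at chr14:46522323-46527415, had 24.5, 40.0 and 43.0 FPKM in control and 115, 120.2 and 108 in model rats. The groups were separate, with tight replicates, and the difference was 1.69 (SE 0.23, limma adjusted p = 0.259). MSTRG.11560.32 had 9.36, 7.96 and 64.5 in control and 377, 677 and 763 in model rats, a difference of 4.99 (SE 0.82). MSTRG.11559.59, MSTRG.11559.25 and MSTRG.11559.3 were also higher in every model rat than in every control rat, with differences of 5.52 (SE 0.90), 5.15 (SE 1.29) and 5.96 (SE 1.85). In MSTRG.11559.3, however, the control rats were at 0, 95.0 and 0 FPKM, and the call was lost without Control 1, Control 3 or Model 3. One member of the same locus, MSTRG.11559.44, went the other way, at 262, 328 and 193 in control and 8.53, 129 and 0 in model rats. The locus totals overlapped between groups, with 4241, 6939.9 and 6449.7 FPKM in control and 5423, 9978 and 8522 in model rats for MSTRG.11559, and 2759, 3265 and 1388 against 2278, 4104 and 5149 for MSTRG.11560.

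Among the called members lower in model rats, MSTRG.30666.1 had the highest level. It joins 4 exons over chr6:75569198-76018401, overlaps 6 annotated genes of its strand by its span and bears the name of Baz1a, a subunit of ISWI chromatin remodelling complexes. Annotated U1 transcripts of the same strand lie within this span, at chr6:75620110-75620273 and chr6:75622796-75622959. Its locus is among the U1 loci described above, and which gene its reads came from was not tested. The FPKM of MSTRG.30666.1 were 2378, 3778 and 3055 in the control rats (mean 3070.4 ± 700.4 SD) and 696, 218 and 561 in the model rats (mean 492 ± 247 SD). All model rats were below all control rats, and the difference was -2.77 (SE 0.65, limma adjusted p = 0.900). The total of its locus, with the second member MSTRG.30666.2, was 5378, 3778 and 3149 in control and 2873, 218 and 2158 in model rats, lower in each model rat, and did not pass (limma adjusted p = 0.935). MSTRG.201.10, an isoform of 5311 bases named after 5.8S, had 59.3, 73.1 and 79.2 in control and 27.7, 12.99 and 14.9 in model rats, a difference of -1.94 (SE 0.30, limma adjusted p = 0.408). The total of its locus was 6491, 9391 and 8728 in control and 4772, 6811 and 7293 in model rats, so that these groups overlapped. MSTRG.3580.2 and MSTRG.3580.9, of 1 clone-named locus on chromosome 1, had differences of -2.28 (SE 0.73) and -2.35 (SE 0.79). The call of MSTRG.3580.2 was lost with a pseudocount of 0.1 and without Control 1 or Control 2, and that of MSTRG.3580.9 with a replicate block and without Control 1, Control 3, Model 1 or Model 3. The total of their locus overlapped, at 2173, 1696 and 1040.1 in control and 1776, 2153 and 1401 in model rats. In MSTRG.3580.9 the groups overlapped, since Control 2 and Model 2 were both at 28.2 FPKM.

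In the other loci, MSTRG.28217.21 had the smallest p after MSTRG.36815.1 among members higher in model rats. It lies at chr5:91134849-91137954, has 2 exons and is named after 5.8S. Its FPKM were 0.776, 3.09 and 4.14 in control and 47.8, 38.2 and 33.6 in model rats, a difference of 3.60 (SE 0.41, limma adjusted p = 0.158). The total of its locus was 83.3, 211 and 459 in control and 499, 810 and 450.3 in model rats, where Model 3 lay below Control 3. MSTRG.21250.3, 4 exons at chr20:3148389-3282205, had 10.2, 7.94 and 10.3 in control and 14.3, 18.1 and 18.5 in model rats. Its groups did not overlap, but the ratio of means stayed under the threshold on fold change. The total of its locus was 18.3, 17.99 and 18.9 in control and 27.4, 35.3 and 22.4 in model rats, also separate (difference 0.57, limma adjusted p = 0.935). MSTRG.8599.1 had 1.96, 0 and 0.163 in control and 4.26, 4.52 and 5.33 in model rats, while its locus total was 3.78, 4.48 and 5.78 against 4.32, 4.57 and 5.40.

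The members lower in model rats in these loci overlapped genes of varied function. MSTRG.1675.2, 5 exons at chr1:98614976-98629936 over the zinc finger gene Zfp17, had 3.08, 4.80 and 3.03 FPKM in control rats and 0, 0 and 0.187 in model rats (difference -2.11, SE 0.21, limma adjusted p = 0.104). The Zfp17 locus itself was at 9.20, 9.78 and 10.97 in control and 8.67, 7.12 and 8.03 in model rats, a narrower gap in the same direction. MSTRG.24924.1 (LOC100363537) had 8.05, 8.77 and 8.71 in control and 0.708, 1.55 and 0 in model rats. Its locus total was 20.1, 20.6 and 11.1 against 9.31, 11.5 and 4.81, where Model 2 exceeded Control 3 (difference -0.96, limma adjusted p = 0.935). MSTRG.31033.8, of 18164 bases over Susd6, which encodes a sushi domain protein, had 2.63, 1.73 and 1.40 in control and 0.266, 0.0715 and 0.000127 in model rats. The total of the Susd6 locus did not follow, at 13.96, 10.5 and 18.1 in control and 14.3, 11.9 and 13.6 in model rats. MSTRG.19878.5 over Kpna4, an importin alpha of nuclear transport, had 2.15, 1.64 and 2.71 against 1.004, 0.598 and 0.321, and its locus total of 23.01, 25.1 and 28.3 against 23.03, 23.95 and 21.2 overlapped. MSTRG.2589.1 had 1.38, 2.56 and 2.80 against 0.0712, 0.0744 and 0.991, with a locus total of 5.66, 8.79 and 10.6 against 6.04, 7.43 and 3.54, which overlapped too. In each of these 5 members, all model rats lay below all control rats.

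**Figure D4:**
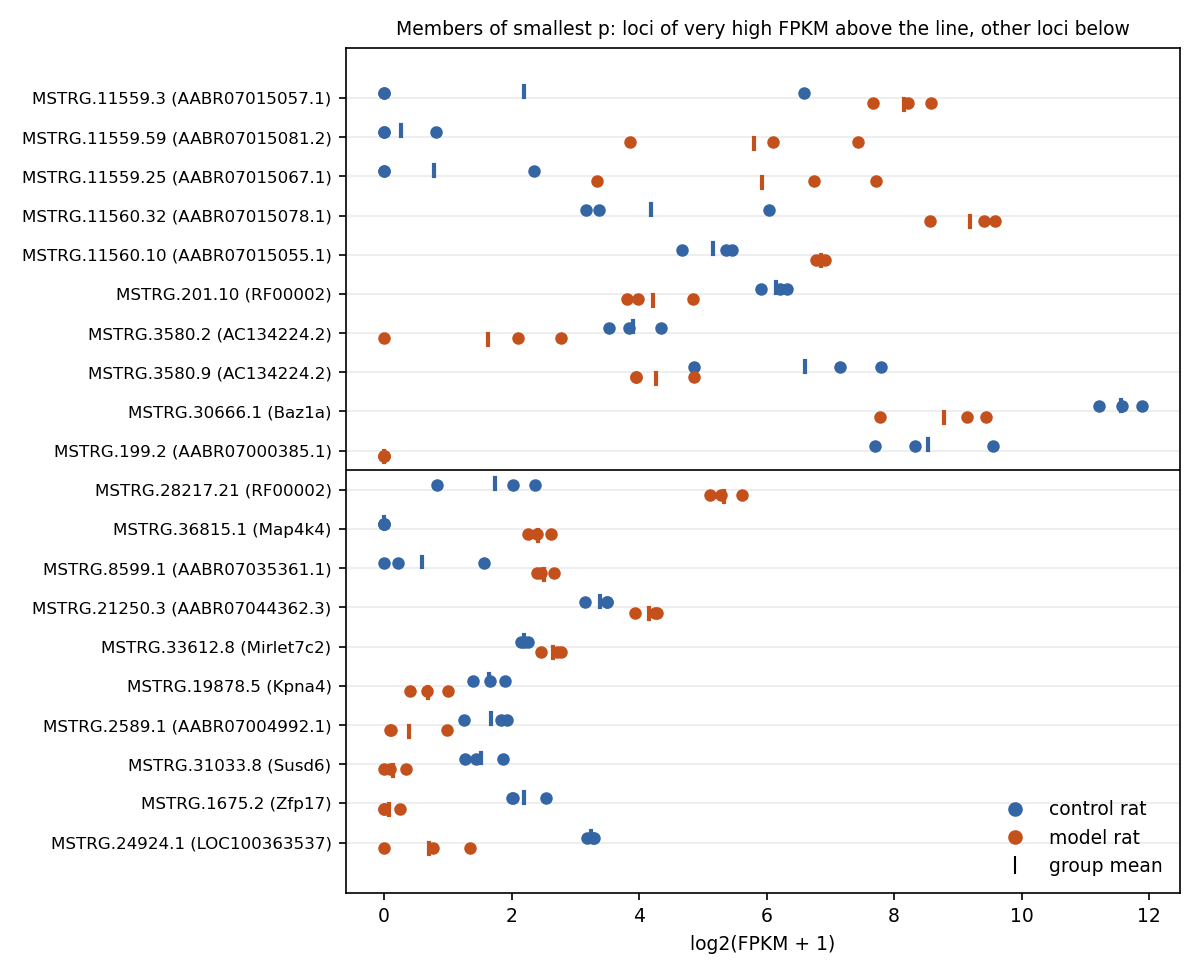
Values of the 5 members with the smallest p in each direction, in loci of very high FPKM above the line and in the other loci below it, as log2(FPKM + 1) on the x axis. Points are rats and bars are group means. Groups are separate in all but MSTRG.3580.9, where Control 2 and Model 2 both stand at 28.2 FPKM.

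Of the 5 members with the highest mean level in the other loci, 3 bear small RNA names, MSTRG.30670.1 described above among them. MSTRG.30245.1, named after 5.8S, had 237, 463 and 389 FPKM in control and 318, 1231 and 146 in model rats, and these overlapped. MSTRG.28217.19, of the locus on chromosome 5 described above, had 49.0, 145 and 91.0 in control and 68.4, 325 and 141 in model rats. MSTRG.20374.1 had 0, 241 and 166 against 512, 648 and 28.1, and MSTRG.22584.2, which bears the name of the transcription factor gene Lmx1b but is only 213 bases long, had 0, 701 and 0.00769 against 410, 314 and 92.8. No group stood apart in any of them. At the borders of the rule, the shortest members were 201 bases long, among them MSTRG.6619.1 of the U2 locus, listed at 0 in 5 libraries and at 1545 FPKM in Model 3. MSTRG.21386.3 (Nfkbil1), at 200 bases, was the one class o transcript that was too short. The locus nearest above the limit on FPKM was MSTRG.30246, with a mean total of 1360.0 and 1 member at 31.6, 43.5 and 185 FPKM in control and 194, 120.3 and 138 in model rats. The nearest below was MSTRG.33847, with a mean total of 849, whose member MSTRG.33847.6 (Kcnh3) had 0.723, 0.745 and 0.794 in control and 1.60, 0.844 and 3.46 in model rats.

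Members over miRNA genes showed no call. Of the 27, 26 were tested and none met the call, for a background of 2.98%, and 1 had an unadjusted p under 0.05. The 8 members over Mir143 and Mir145 at chr18:56966581-56989170 summed to 7.06, 8.33 and 4.41 FPKM in control and 14.2, 5.91 and 6.60 in model rats, with Model 1 high. The 7 members over Mirlet7b and Mirlet7c2 at chr7:126530636-126593963 summed to 6.60, 14.1 and 9.07 in control and 11.7, 9.49 and 12.7 in model rats. Within this locus MSTRG.33612.8, of 26249 bases, had 3.43, 3.78 and 3.58 in control and 5.87, 4.52 and 5.58 in model rats, with all model rats above the control rats. Its difference was 0.45 (SE 0.12, limma adjusted p = 0.945). The locus total overlapped, at 21.0, 18.9 and 18.2 in control and 16.1, 22.5 and 23.0 in model rats.

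The 3 members over Mirlet7c1 and Mir99a on chromosome 11, with the same let-7c product, summed to 4.98, 3.95 and 5.03 in control and 3.02, 4.32 and 2.28 in model rats, and overlapped. The member over Mir222, 5 exons on the X chromosome, had 2.38, 2.0 and 2.38 in control and 1.67, 2.03 and 1.41 in model rats, where only Model 2 reached the control range. The members over Mir30a and Mir30c2 summed to 1.65, 1.09 and 5.89 in control and 1.31, 3.56 and 0.742 in model rats, and the member over Mir30b had 1.37, 1.70 and 1.49 against 2.04, 1.08 and 1.08. The groups overlapped in both. The members over Mir22 and Mir6326 summed to 4.502, 4.88 and 2.77 against 6.30, 3.17 and 3.39, and the member over Mir322 had 0.631, 1.06 and 4.48 against 3.41, 3.69 and 0.246. The remaining member, named rno-mir-3542-1, had 2.88, 3.52 and 3.34 against 3.36, 2.50 and 2.71, and no listed hairpin lay in its span. Exact permutation tests of the 9 sums gave p between 0.2 and 1, and between 0.9 and 1 after Benjamini-Hochberg adjustment. The annotated hairpins themselves were at or below 0.971 FPKM.

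**Figure D5:**
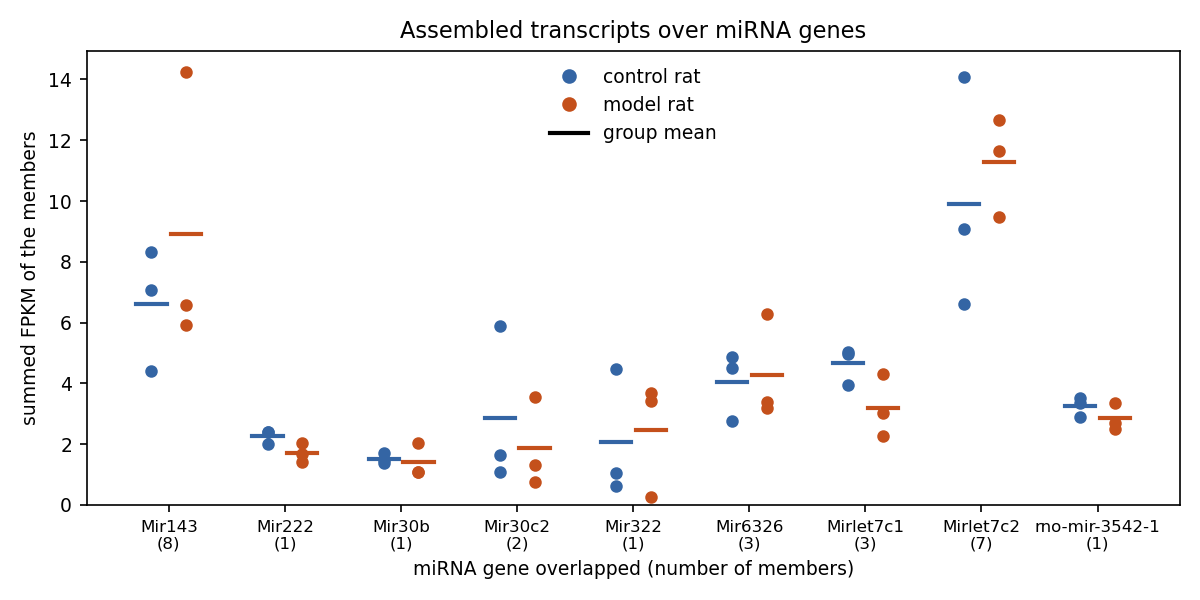
Summed FPKM (y axis) of the members over each of 9 miRNA genes (x axis, with the number of members), per rat, with group means as bars. Control and model rats overlap in each of the 9 genes.

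Members were also counted by the gene name the table gives them, which need not be that of an overlapped gene, for a background of 2.98% called. Among 179 members with Rfam names, which cover small RNA families, 140 were tested and 8 called (5.71%), 4 in each direction. The 39 members named after 5.8S (RF00002) gave 3 of these, and the 11 named after 7SK (RF00100), an RNA that holds back transcription elongation, gave 1. U6 (RF00026), another spliceosomal RNA, named 21 members in 19 loci at a median of 2.20 FPKM and gave no call, with 0 members at an unadjusted limma p under 0.05. Clone-based or provisional names were carried by 498 members, of which 442 were tested and 24 called (5.43%), 9 higher and 15 lower, where 1.22% and 1.76% of all transcripts were. The remaining names outside the lists were carried by 948 members, of which 879 were tested and 21 called (2.39%), 8 higher and 13 lower. Whether these shares differ from the background was not tested.

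Of 43 genes of the extracellular matrix and of fibrosis signalling, 2 had a member, namely Pdgfra, the receptor of PDGF-A on fibroblasts, and Tgfbr1, the type I receptor of TGF-beta. Over the 21210 gene names of annotated transcripts, 4.42% were carried by a member. MSTRG.11315.1 over Pdgfra had 1.43, 1.85 and 2.08 FPKM in control and 1.71, 1.51 and 1.49 in model rats, and MSTRG.27938.1 over Tgfbr1 had 1.51, 1.36 and 1.92 against 1.14, 1.44 and 0.894. Neither was called, and both overlapped. None of 17 lung epithelium genes had a member. Of 30 chromatin and splicing genes, 4 had members, among them Baz1a, Setd2 and Arid1b, and of their 8 members 1 was called, for a background of 2.98%. It was the member named Baz1a described above, whose span also holds annotated U1 transcripts.

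Of 20 genes listed for Wnt and Notch signalling, 3 had members, namely Lef1, Tcf4 and Dll4. Tcf4 is not the Wnt factor of similar name, so the counts are those of the list and not of the pathways. Among the 8 members of the 3 genes, 6 were tested and 1 was called, for a background of 2.98%. It was MSTRG.20830.2 over Lef1, the transcription factor at the end of canonical Wnt signalling, at chr2:236195082-236243877. Its FPKM were 1.33, 0.587 and 0.349 in control and 2.36, 1.84 and 1.95 in model rats, with all model rats above the control rats and a difference of 0.83. The second Lef1 member, MSTRG.20830.1, was listed at 0 in Control 1 and in all model rats and had 3.00 and 2.37 in Control 2 and Control 3, the opposite order, and was not tested. Both members start at the same base. MSTRG.17000.1 over Tcf4, a basic helix-loop-helix factor, had 4.55, 4.20 and 4.14 against 4.24, 3.95 and 4.61. Receptors of the vomeronasal and olfactory kind named 9 members of 5 genes, and 1 of the 9 was called, against 2.98% of all transcripts. It was MSTRG.36873.4, named Vom1r50 but overlapping no annotated gene of the table, with 2.64, 1.20 and 1.99 in control and 0.622, 0.458 and 0.812 in model rats. The one name that begins like a ribosomal protein gene, Rps6ka3, is that of a kinase, and its member MSTRG.38205.1 had 4.02, 3.42 and 4.63 against 3.46, 3.57 and 1.22.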

How the data were processed

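Lung tissue of 3 control and 3 model rats was analysed, with samples grouped by their labels. Per the submitters' processing notes, HISAT2, StringTie and TopHat were used, and the paper's methods name Cutadapt, Bowtie2 and Tophat2 before assembly in each library, merging with StringTie and quantification with Ballgown. The authors deposited FPKM for each transcript and library. The per-base coverage deposited beside it, a signal that is not scaled to library size, served only to estimate reads (coverage times length over a read length of 150 bases) and depth. The genome build is not given in the sources used here, so coordinates are those of the table and only mature miRNA sequences are shown. The label names a stranded library kit. The reads of near-identical copies may have been divided among them, and the table does not show how. Circular RNA values and the annotation of coding potential were not used here.

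FPKM were tested as log2(FPKM + 1) with limma 3.58.1 (trend, two-sided) in R 4.3.3, over all transcripts present in 3 or more of the libraries, with Benjamini-Hochberg adjustment over all of them. P-values of single sums came from exact permutation tests over all 20 splits. Locus totals were tested like transcripts. All 3 libraries of a group are from separate rats. The numbers of the libraries do not pair them, since the correlation of same-numbered deviations was 0.01, 0.05 and -0.04. Members named are those with an adjusted p below 0.05, the 5 with the smallest p in each direction and set among members with a mean FPKM of at least 1, the 5 of highest mean in each set, examples from gene lists and those nearest the limits. The members and lists were chosen with earlier results of these data known. MSTRG.11559.44 and members named in the closing section, other than those of this rule, were chosen after their values were seen, as were single U1, U2 and 7SL members. Alternatives changed the pseudocount, filter, scaling, test, limits, set of transcripts and libraries. The scripts were tested on simulated data. Tables were handled in Python 3.11.15 with pandas 2.3.3, numpy 2.4.6, scipy 1.17.1 and matplotlib 3.10.9.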

Additional observations from a re-analysis of the deposited data

How the results depend on the processing

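The number of members called (53, with 16 in loci of very high FPKM and 37 in the others) stayed within 1.5 times under another pseudocount, filter, scaling or set of transcripts and without a limit on length. An F test with a library size covariate, as Ballgown makes it, called 26 members, 7 in loci of very high FPKM and 19 in the others, and 822 of all transcripts against 1934. The filter of a mean FPKM of at least 1 called 1066. With a limit of 10000 for a very high locus, only 18 members lay in such loci and 7 of them were tested. Of these 7, 0 were called by limma and 0 had an unadjusted p under 0.05, too few to compare with the background. Over all members, the count at an adjusted p below 0.05 was 2. It was 3 with a pseudocount of 0.1 (MSTRG.33762.8 joined), 1 without a filter, 0 with the F test, and 0 to 1 without a single replicate (the 1 was MSTRG.11559.3, without Control 2), when 47 to 65 members were called. Members called in loci of very high FPKM then numbered 11 to 20. The difference of the sums of the other members (0.53 as a log2 ratio of means) was 0.031 with a limit of 100 for a very high locus, 0.20 with a limit of 10000, 0.62 on the TPM scale (exact permutation p = 0.1 against 0.2) and 0.13 to 0.74 without a single replicate, the lowest without Model 2. Rescaled to the sum outside loci of very high FPKM, this difference was 0.51 (exact permutation p = 0.4). Rescaling to TPM moved the median difference of all transcripts from -0.02 to 0.02, and 989 of 1947 calls were then higher in model rats, against 794 of 1934. Rescaling to the sum outside loci of very high FPKM gave a median of -0.03, with 758 of 1954 calls higher. With the replicate number as a block, a pairing the data did not bear out, 52 members were called, 0 at an adjusted p below 0.05, and of the named members only MSTRG.3580.9 lost its call. Of the loci with a member, 13 totals were called, 9 to 20 without a single replicate and 10 to 14 under the other alternatives for totals, all chosen after seeing the data. Of the named members' values under alternatives, 183 kept their side of the call, 11 lost a call (in MSTRG.11559.3, MSTRG.3580.2 and MSTRG.3580.9) and none changed direction. The median member of the other loci rests on about 206 reads per library, which bounds the precision of its value.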

Other observations

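Further called members, chosen here after their values were seen, lay over genes of several functions, and none passed the adjusted threshold. Of the 53 called members, which came from 45 loci, 28 had 2 exons, 12 had a mean FPKM below 1 and 49 had groups that did not overlap. The call itself favours groups that do not overlap, so the last count adds no evidence to the calls. MSTRG.3552.2 over Ltbp3, which encodes a protein that binds latent TGF-beta, had 10.5, 18.1 and 9.07 FPKM in control and 1.48, 2.63 and 8.23 in model rats. MSTRG.24396.2 over Samhd1, which encodes a dNTP hydrolase, had 0.917, 0.983 and 1.10 against 0.469, 0 and 0.0151. MSTRG.31514.1 over the dynein heavy chain gene Dync1h1 had 2.08, 4.51 and 4.82 against 1.23, 1.77 and 0.545. The model rats were below the control rats in all 3. Among members higher in model rats, MSTRG.34781.2 over Cul5, a scaffold of ubiquitin ligases, had 0.865, 0.157 and 0.909 in control and 1.35, 1.28 and 2.02 in model rats. MSTRG.5258.1 over Aff4, a scaffold of the super elongation complex, had 0.614, 0.455 and 0 against 0.675, 1.25 and 1.62. These were separate too, at levels of a few FPKM at most.

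Within the 5.8S locus MSTRG.30244 on chromosome 6, 2 called members moved in opposite directions. MSTRG.30244.7 had 1681, 1563 and 1209 FPKM in control and 194, 1070.5 and 74.3 in model rats, a difference of -2.55 (SE 0.98). MSTRG.30244.5 had 2.45, 3.80 and 0.975 in control and 952, 24.2 and 25.4 in model rats, a difference of 4.75 (SE 1.48). The total of the locus was 2026, 2107 and 1611 in control and 3263, 3138 and 2748 in model rats, higher in each model rat. With the moderated SE, the total did not pass in limma (difference 0.68, SE 0.50, Benjamini-Hochberg adjusted p = 0.935). Opposite directions within 1 locus were thus seen here and in MSTRG.11559, and their source was not tested.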
